A study of Rattus norvegicus with 110 samples.

Results

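Of the 31998 gene identifiers counted in rat liver, 37 were chosen because their mean level was already raised at a low dose of carbon tetrachloride (CCl4) and lay close to that level at a high dose. Levels were given as CPM, the count of a gene divided by the total of its library and multiplied by 1000000, averaged over the vehicle, low-dose and high-dose libraries. A gene was taken if its vehicle mean was at least 1 CPM, if log2(low/vehicle) exceeded 0.7 and if the absolute value of log2(high/low) was under 0.5, with a cap of 200 genes that was not reached. Among the 11910 genes with a vehicle mean of at least 1 CPM, 636 passed the limit for the low dose, and 588 of these stood at a log2(high/low) of 0.5 or more, 11 at -0.5 or less and 37 between the limits. The 37 members were thus 0.311% of the genes the rule could take. Every dose difference in liver was used by this choice and is given below as a description without a test.

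The livers came from F2 males of outbred Sprague Dawley rats, treated as young adults by oral gavage 3 times a week and sampled on day 39, about a day after the last dose. All doses had a volume of 0.5 mL/kg and held olive oil without CCl4 for the vehicle (groups 11, 14, 17 and 20), 8% CCl4 by volume for the low dose (groups 12, 15, 18 and 21) or 50% for the high dose (groups 13, 16, 19 and 22). Neither sire nor grandsire of cohort A (groups 11 to 13) had been given CCl4. In cohort B (groups 14 to 16) the F1 sire had been treated with 50% CCl4, in cohort C (groups 17 to 19) the F0 grandsire, and in cohort D (groups 20 to 22) both, while all dams were untreated. Each group held 7 males apart from group 17 with 6, which gave 27 vehicle, 28 low-dose and 28 high-dose livers, and kidney was sequenced from the 27 vehicle males. The males came from 34 litters and were necropsied on 4 dates, each of which held all 12 groups. Liver libraries held between 31638559 and 51343589 counts and kidney libraries between 21961746 and 35055218.

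CCl4 is turned into radicals by cytochromes P450 in the hepatocytes around the central veins, and repeated dosing kills these cells, draws in macrophages and other leukocytes and activates the stellate cells that lay down scar. The liver also runs on a daily clock, a loop in which the activator Arntl (Bmal1) drives its own repressors, the period (Per) and cryptochrome (Cry) genes and the nuclear receptors Nr1d1 and Nr1d2, and in which output factors such as Dbp pass the rhythm on to metabolism. Interferon-inducible genes form a further programme that hepatocytes and myeloid cells share.

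A gene symbol could be assigned to 3 of the 37 members. Slfn4 (ENSRNOG00000057092.1) is a schlafen family gene known from myeloid cells and inducible by interferon. Per3 (ENSRNOG00000018413.7) is a period gene of the clock, and Noct (ENSRNOG00000010799.5) encodes nocturnin, a phosphatase with a strong daily rhythm in liver. The symbols came from a list of genes that the study had selected on these same samples for an effect of F0 treatment, so the named members are no random draw from the 37. None of the 3 belongs to the cell type or pathway lists used here, and the other 34 members could not be placed in a list. The members with the largest log2(low/vehicle), ENSRNOG00000042289.3 and ENSRNOG00000021802.5, are named by identifier.

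The promoters of the named members are shown because they are the members whose sequence could be looked up by symbol. They run from 250 bases before to 50 bases after the RefSeq transcription start in GRCr8, 5′ to 3′ on the strand of the gene, at chr10:68491970-68492269 (plus strand) for Slfn4, chr5:166777751-166778050 (minus strand) for Per3 and chr2:137421824-137422123 (plus strand) for Noct. Capitals mark a match to AP-1 (TGANTCA) in Slfn4 and to the core of the dioxin response element (GCGTG) in Per3 and Noct. The dioxin element was taken by rule as the motif whose share among the 3 exceeded its share among all promoters the most, and the AP-1 match of Slfn4 was chosen after the matches had been seen.
Slfn4: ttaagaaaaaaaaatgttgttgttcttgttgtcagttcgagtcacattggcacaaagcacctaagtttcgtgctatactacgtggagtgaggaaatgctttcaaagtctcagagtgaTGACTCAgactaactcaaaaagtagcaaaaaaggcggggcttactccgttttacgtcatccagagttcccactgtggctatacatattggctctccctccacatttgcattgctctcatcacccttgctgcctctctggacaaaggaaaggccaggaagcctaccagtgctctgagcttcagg
Per3: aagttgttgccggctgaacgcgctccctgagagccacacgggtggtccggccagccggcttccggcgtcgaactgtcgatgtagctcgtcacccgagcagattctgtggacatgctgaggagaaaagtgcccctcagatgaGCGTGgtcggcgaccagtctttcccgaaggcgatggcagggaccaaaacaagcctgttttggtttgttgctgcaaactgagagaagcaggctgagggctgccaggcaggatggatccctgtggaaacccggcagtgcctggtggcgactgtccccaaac
Noct: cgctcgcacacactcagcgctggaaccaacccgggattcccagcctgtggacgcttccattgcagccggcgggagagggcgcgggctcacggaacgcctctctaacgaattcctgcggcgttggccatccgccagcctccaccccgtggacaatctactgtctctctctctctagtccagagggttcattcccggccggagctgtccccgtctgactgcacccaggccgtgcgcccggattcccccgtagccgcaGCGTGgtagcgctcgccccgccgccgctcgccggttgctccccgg
The AP-1 match began at base -133 from the start in Slfn4, and the dioxin element at base -109 in Per3 and at base 6 in Noct. On both strands, AP-1 was found in 7.33% and the dioxin element in 29.7% of 33469 RefSeq promoters of the same length, so neither match is rare. The interferon element TTTCNNTTT, found in 11.8% of promoters, the E-box CACGTG (6.42%) and the D-box TTATGNAA (3.66%) had no match in the 3 windows.

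The members were lowly to moderately expressed, with vehicle means between 1.2 and 73.9 CPM (median 5.32, against 13.4 over the 11910 genes). Their log2(low/vehicle) lay between 0.71 and 2.30 with a median of 0.88, and 15 members were more than 2-fold higher at the low dose. Their log2(high/low) lay between -0.38 and 0.49 with a median of 0.15. At the high dose 25 members stood above and 12 below their low-dose mean, and 18 lay within 0.25 of it. The members nearest to the limits had a log2(low/vehicle) of 0.71 and a log2(high/low) of 0.49, and the nearest genes outside had 0.69 and 0.50, so the list shades into its neighbours. At the limit for the vehicle level, the lowest member had 1.2 CPM and the highest gene that met the other limits 0.950 CPM.

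**Figure D1:**
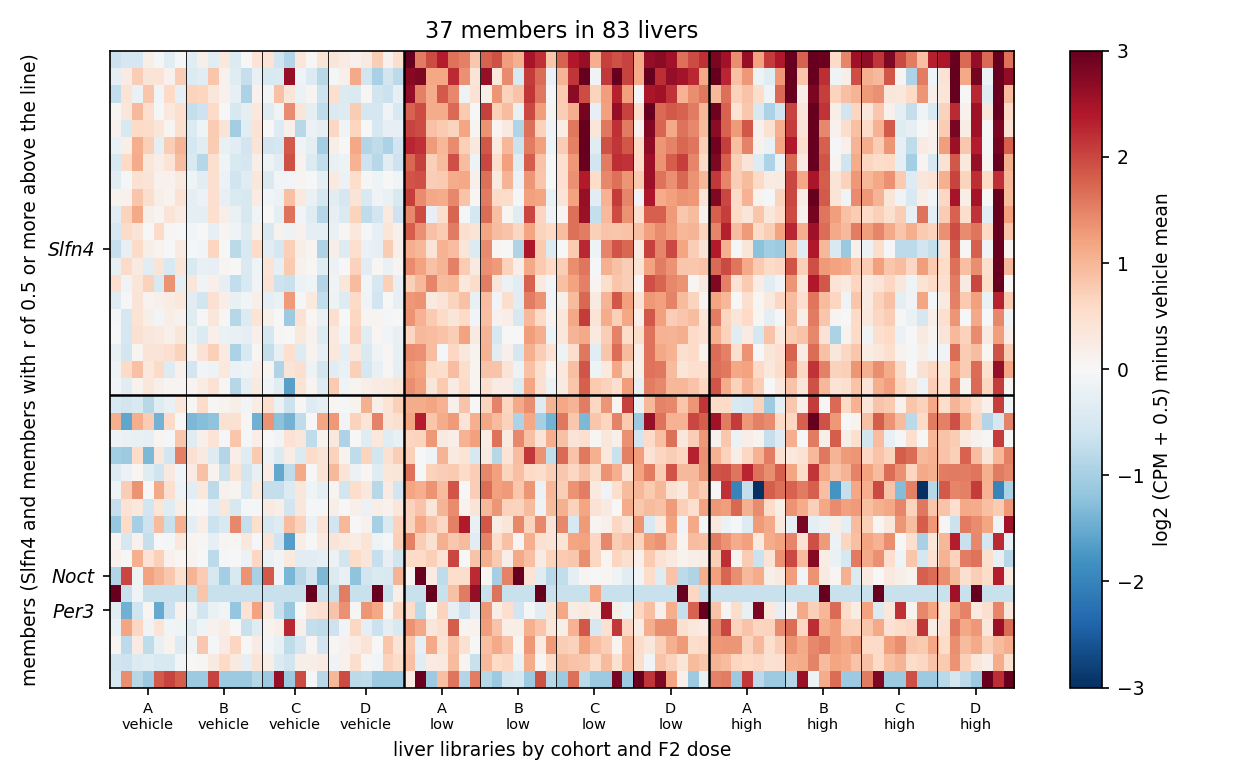
Level of the 37 members (rows) in the 83 liver libraries (columns, by cohort and F2 dose), as log2(CPM + 0.5) minus the mean of the vehicle libraries, with red for higher and blue for lower. Slfn4 and the 19 members whose level between animals had an r of 0.5 or more with it stand above the horizontal line and the other 17 below it, and within a dose group whole columns of the upper block were red or pale together.

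ENSRNOG00000042289.3 had the largest rise. In vehicle livers it ranged from 0.511 to 2.58 CPM (median 1.52), at the low dose from 2.74 to 16.1 CPM (median 6.59) and at the high dose from 2.27 to 32.3 CPM (median 9.02). Every low-dose liver lay above every vehicle liver, whereas 1 of the 28 high-dose livers fell within the vehicle range. Mean levels were 1.43 ± 0.524 (SD, n = 27), 7.01 ± 3.14 (SD, n = 28) and 9.79 ± 6.51 CPM (SD, n = 28), and log2(low/vehicle) lay between 2.08 and 2.73 in the 4 cohorts. It was the single member with such a separation at the low dose, against a background of 0.260% of the 11910 genes, and 1 member had every high-dose liver above every vehicle liver, against 7.00% of genes. Because the choice rested on these same means, nothing is read from these counts.

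ENSRNOG00000021802.5 rose almost as far but was scattered. It ranged from 2.05 to 29.8 CPM in vehicle livers (median 3.75), from 3.14 to 128 CPM at the low dose (median 20.1) and from 2.12 to 91.7 CPM at the high dose (median 11.1). Of the 28 low-dose livers 7 lay above the highest vehicle liver, a count set by 1 liver of group 17, since the next vehicle liver was at 10.4 CPM and 21 low-dose livers lay above that. Its mean log2(high/low) of -0.17 was made of cohort values between -2.21 and 1.09.

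Slfn4 was among the most abundant members. It ranged from 12.2 to 40.2 CPM in vehicle livers (median 23.8), from 12.5 to 129 CPM at the low dose (median 43.3) and from 9.85 to 248 CPM at the high dose (median 23.7). Of the 28 low-dose livers 16 lay above the highest vehicle liver, while the median high-dose liver was at the vehicle median. Means were 24.8 ± 7.88 (SD, n = 27), 51.2 ± 31.2 (SD, n = 28) and 43.2 ± 51.4 CPM (SD, n = 28), and 1 liver of group 22 carried 20.5% of the sum of the high-dose levels. Log2(high/low) was -0.25 by means and -0.87 by medians. By cohort it was -0.06 in A, -0.10 in B, -1.70 in C and 0.34 in D. Slfn4 belongs to a family of related genes, between which the estimation of counts could shift reads, so its level is uncertain. Whether any unnamed member shares reads with it was not tested.

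Per3 and Noct passed the low-dose limit through a few livers. Per3 ranged from 0.806 to 9.13 CPM in vehicle livers (median 3.31), from 1.63 to 44.1 CPM at the low dose (median 3.78) and from 2.29 to 25.9 CPM at the high dose (median 4.89), and its highest low-dose liver held 24.7% of the low-dose sum. Noct ranged from 0.430 to 9.02 CPM (median 1.28), from 0.70 to 42.5 CPM (median 1.98) and from 1.29 to 11.7 CPM (median 3.25) in the same order, and its highest low-dose liver held 34.3% of the sum. For both genes 3 of 28 low-dose livers lay above the highest vehicle liver. Without that highest liver, log2(low/vehicle) was 0.40 for Per3, against 0.75 with it, and 0.25 for Noct, against 0.80. With medians in place of means it was 0.19 for Per3 and 0.63 for Noct. Over the 37 members, 29 stayed over the limit without their own highest low-dose liver and 30 passed it by medians. Among the 37, 1 unnamed member was at 0 in 63 of the 83 livers and had a median of 0 at every dose. Its means of 1.26, 2.14 and 2.52 CPM rested on a few livers, of which 1 held 50.4% of the vehicle sum and 1 held 58.5% of the high-dose sum, and its log2(low/vehicle) ran from -2.52 to 4.34 by cohort. Another unnamed member was at 0 in 29 livers.

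**Figure D2:**
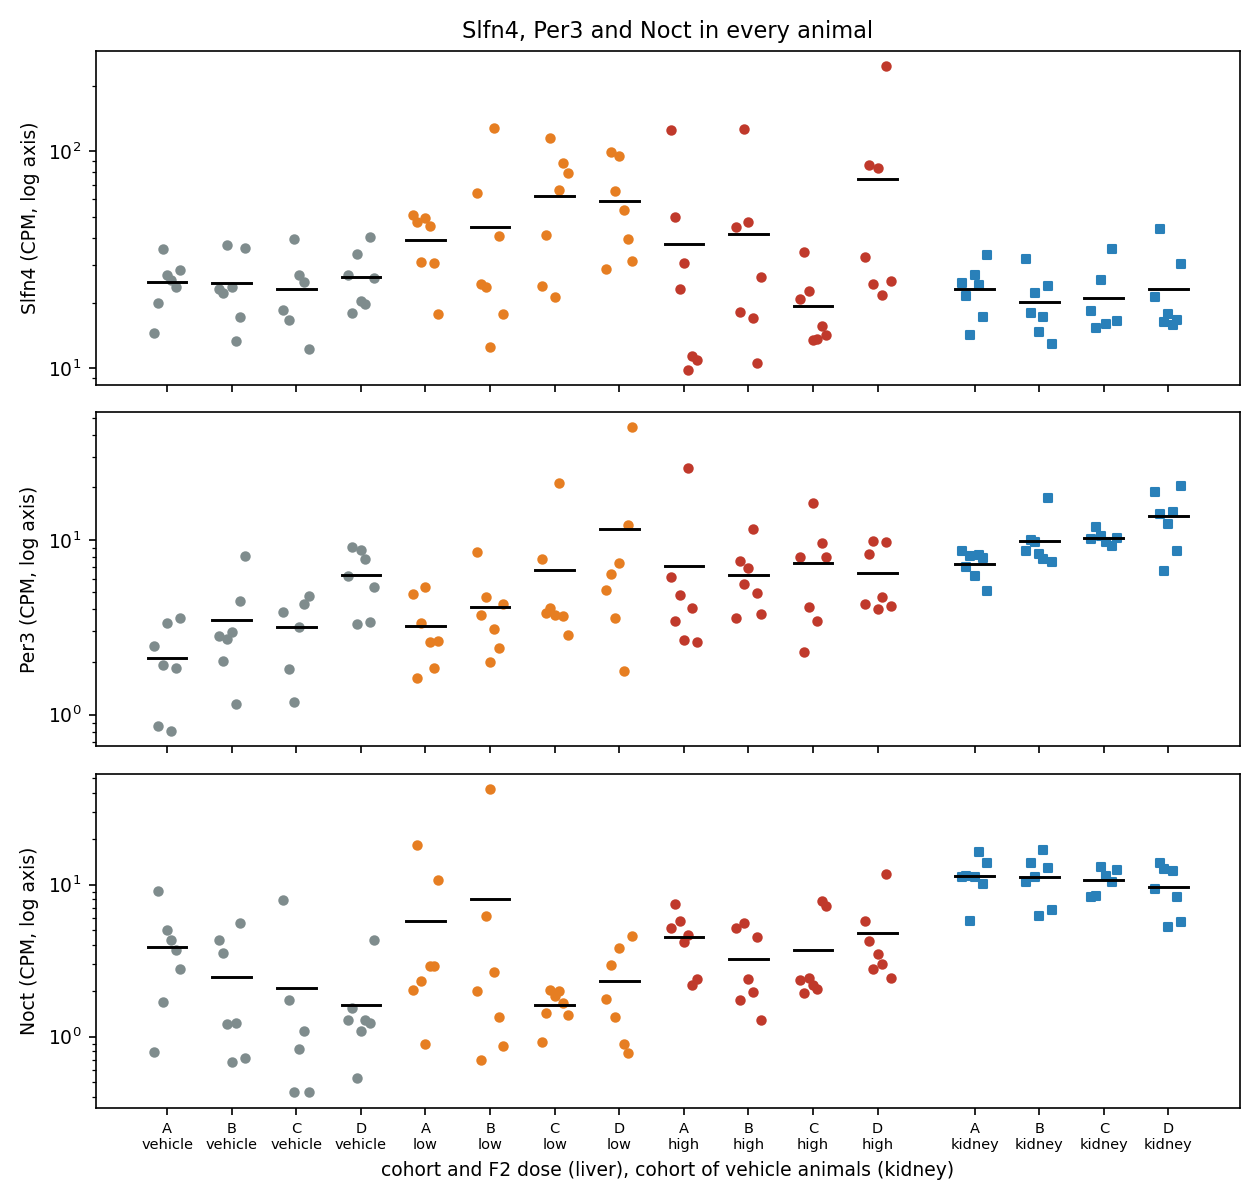
Level of Slfn4, Per3 and Noct in CPM (log axis) in each liver by cohort and F2 dose and in each kidney of the vehicle males by cohort, with 1 point per animal and a bar at the group mean. Single animals such as the group 22 liver at 248 CPM for Slfn4 and the group 21 liver at 44.1 CPM for Per3 pulled their group means upward.

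The spread between animals was wide in the members as a whole. The SD of log2(CPM + 0.5) within groups had a median over members of 0.46 in vehicle, 0.65 in low-dose and 0.80 in high-dose livers, against 0.28, 0.26 and 0.35 over the 11910 genes. Of the 37 members, 36, 37 and 34 lay above that median. The genes were not matched for level, and the median vehicle level was 5.32 CPM for the members against 13.4 CPM. The rule used these same livers, so the counts only describe the members. The low-dose rise had the same sign in all 4 cohorts for 34 members and on all 4 dates for 33, and it exceeded 0.7 in all 4 cohorts for 16 and in 3 cohorts for 7. The other limit was less stable. An absolute log2(high/low) under 0.5 was met in all 4 cohorts by 4 members, and 1 member met both limits in every cohort.

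**Figure D3:**
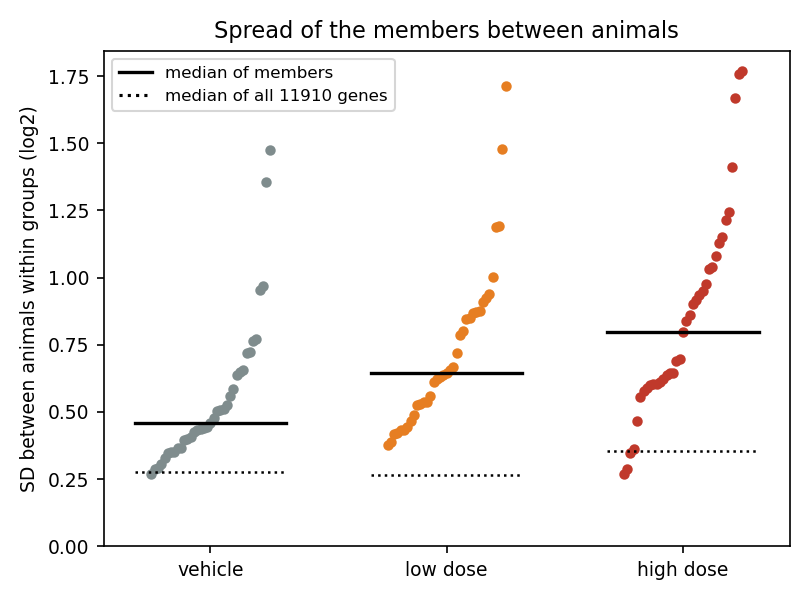
SD between animals of log2(CPM + 0.5) within groups for each of the 37 members (points) in vehicle, low-dose and high-dose livers. The solid bar is the median of the members (0.46, 0.65 and 0.80) and the dotted bar the median of the 11910 genes (0.28, 0.26 and 0.35).

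Which genes the rule took depended on the scale. In CPM the median gene itself stood at a log2(low/vehicle) of 0.14 and a log2(high/low) of 0.39. The 50 genes most abundant in vehicle livers took a median of 42.0% of all counts in vehicle, 39.8% in low-dose and 31.5% in high-dose livers. With TMM normalization, which scales libraries so that most genes do not differ, the median gene was at -0.03 and -0.06, the median member at 0.71 and -0.31, and 36 of the 37 members were lower at the high than at the low dose (34 with DESeq2's size factors). The median gene and the median member moved by about the same amount between the scales, so this count follows from the scaling and the limit of the rule and is no finding about the members. Slfn4, Noct and Per3 had a log2(high/low) of -0.82, -0.68 and -0.33 under TMM, against -0.25, -0.12 and 0.09 in CPM. Of the 37 members 25 stayed within the high/low limit under TMM and 27 under size factors, while 19 and 17 stayed over the low/vehicle limit. The rule took 78 genes under TMM, 11 of them members, and 62 genes under size factors, also with 11 members, and 9 members were taken on all 3 scales. The word saturated therefore describes the members in CPM. ENSRNOG00000042289.3 was taken on all 3 scales, with 2.11 and -0.00 under TMM, and none of the 3 named genes was.

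**Figure D4:**
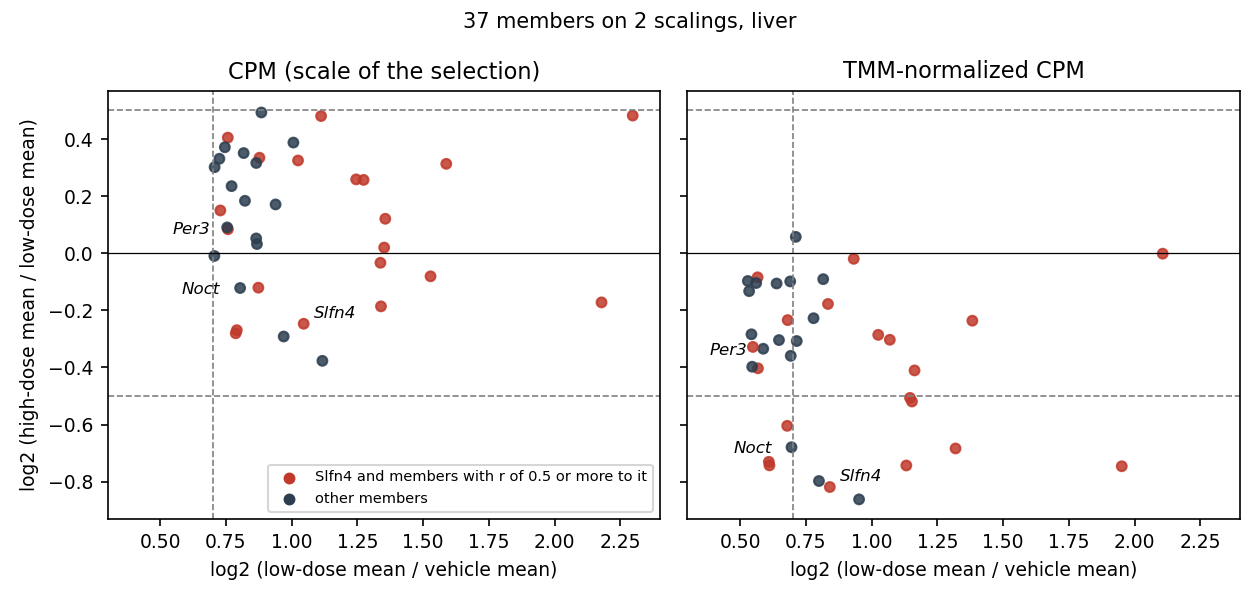
Log2(high-dose mean/low-dose mean) against log2(low-dose mean/vehicle mean) for the 37 members in CPM (left) and TMM-normalized CPM (right), with dashed lines at the limits of the rule. The points straddle 0 in CPM (median 0.15), and 36 of 37 lie below 0 under TMM (median -0.31).

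The ancestors' treatment was not used by the choice and was tested with edgeR's quasi-likelihood test over all genes past a count filter, with Benjamini-Hochberg adjustment and calls at an adjusted p under 0.1. F0 treatment of the grandsire was called for 2 of the 37 members (5.41%), against 8.93% of all genes, and both were genes that the study had picked for this effect on these samples, which makes them no independent evidence. Per3 was higher with a treated F0 grandsire by 0.72 ± 0.21 (log2, SE, adjusted p = 0.0236 in edgeR). In vehicle livers its mean was 2.12 ± 1.08 CPM (SD, n = 7) in cohort A, 3.46 ± 2.27 CPM (SD, n = 7) in B, 3.19 ± 1.42 CPM (SD, n = 6) in C and 6.28 ± 2.4 CPM (SD, n = 7) in D, and the F0 difference was positive in 6 of 6 combinations of F1 treatment and F2 dose. The difference rested on 2 dates, with 1.15 on date 1, 0.86 on date 2, 0.05 on date 3 and 0.11 on date 4, and it was not called without date 1 (0.48, adjusted p = 0.149) or without date 2 (0.55, adjusted p = 0.199) in edgeR. Noct was lower with a treated F0 grandsire by -0.85 ± 0.28 (log2, SE, adjusted p = 0.0552 in edgeR), in 5 of 6 combinations. Its difference was -1.62 on date 2 and 0.10, 0.74 and -0.81 on dates 1, 3 and 4, and it was lost with the litter as a block (-0.47, adjusted p = 0.359 in limma-voom), with the date as a block (-0.68, adjusted p = 0.156) and without date 2 (-0.17, adjusted p = 0.809) or date 4 (-0.78, adjusted p = 0.309). The estimate for Slfn4 was 0.23 ± 0.18 (log2, SE, adjusted p = 0.541 in edgeR).

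F1 treatment of the sire was called for 0 of the 37 members, against 0.20% of all genes, with 3 members (8.11%, against 10.3% of genes) at an unadjusted p under 0.05 in edgeR and 0 members called by DESeq2, against 0.132% of genes. The low-dose rise did not pass the test for a difference with F0 treatment in any member (0 of 37, against 0.716% of all genes, with 2 members or 5.41%, against 4.32% of genes, at an unadjusted p under 0.05 in edgeR and 0 members called by DESeq2, against 0.105% of genes). For F1 treatment the same interaction gave 0 of 37, against 0% of all genes, again with 2 members (5.41%, against 5.27% of genes) at an unadjusted p under 0.05 in edgeR and 0 members called by DESeq2, against 0.0316% of genes. The estimates for F0 were wide, at 0.52 ± 0.42 for Slfn4, 0.57 ± 0.49 for Per3 and -1.16 ± 0.64 for Noct (log2, SE), and so would allow sizeable differences. In kidney F0 treatment was called for 0 of the 34 members tested, against 0.0109% of 18374 genes, with 1 member (2.94%, against 8.70% of genes) at an unadjusted p under 0.05 in edgeR and 0 members called by DESeq2, against 0.419% of genes. That member was Per3, higher by 0.45 ± 0.14 (log2, SE, unadjusted p = 0.0028, adjusted p = 0.330 in edgeR), and its kidney means were 7.30 ± 1.27 CPM (SD, n = 7) in cohort A, 9.91 ± 3.46 CPM (SD, n = 7) in B, 10.3 ± 0.888 CPM (SD, n = 6) in C and 13.6 ± 4.98 CPM (SD, n = 7) in D.

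Necropsy dates, tested within the 12 groups, differed for 6 of the 37 members in liver (16.2%), against 7.16% of all genes, and the smallest adjusted p of a member was 0.0015 in edgeR. At an unadjusted p under 0.05 it was 8 members (21.6%), against 19.8% of genes, so the members stood out little at that threshold. Per3 was one of them (adjusted p = 0.0374 in edgeR), lower than on date 1 by -1.02 on date 2, -0.77 on date 3 and -0.38 on date 4 (log2). In low-dose livers it averaged 11.5 ± 14.5 CPM on date 1 (SD, n = 8), 2.70 ± 0.869 CPM on date 2 (SD, n = 8), 4.95 ± 1.69 CPM on date 3 (SD, n = 4) and 5.66 ± 3.23 CPM on date 4 (SD, n = 8). Its log2(low/vehicle) was 1.31 on date 1 and -0.02 on date 2. The hour of each necropsy is not used here. In kidney the dates were called for 0 of 34 members, against 0% of all genes, with 5 members (14.7%, against 5.30% of genes) at an unadjusted p under 0.05 in edgeR and 0 members called by DESeq2, against 0.136% of genes.

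The average transcript length, a readout of which transcripts of a gene carry the counts, was tested with limma. It differed between low dose and vehicle for 0 of 37 members, against 0.0368% of all genes, with 1 member (2.70%, against 2.77% of genes) at an unadjusted p under 0.05. Between high and low dose it differed for 0 of 37, against 0.384%, with 4 members (10.8%, against 15.9% of genes) at an unadjusted p under 0.05. No other tool was run on the lengths. A call also needed a log2 difference over 0.1, which the member with the smallest adjusted p for high against low dose (0.0771) did not reach. For low dose against vehicle the smallest p belonged to Slfn4, whose mean length was 1378 bases in vehicle, 1843 in low-dose and 1608 in high-dose livers and 927 in kidneys. The low-dose difference was 0.43 ± 0.12 (log2, SE, unadjusted p = 0.000788, adjusted p = 0.497 in limma). Per kilobase of that length Slfn4 stood at 18.2, 26 and 22.4 CPM per kb in the 3 liver groups and at 24.8 in kidney, so its dose difference was smaller on that scale. With the lengths taken into account the rule took 36 genes, 35 of them members. The 2 members lost were Slfn4, with a log2(low/vehicle) of 0.52, and Per3, with 0.55, so Noct was the single named gene that remained (0.79).

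Slfn4 and 19 further members varied together between animals. For this the group means were removed from log2(TMM-normalized CPM + 0.5), so that mean differences between dose groups and cohorts were taken out while differences between animals in their response to a dose remained, and the residuals of the 83 livers were correlated with those of Slfn4 over 19003 genes, with 100000 permutations within groups. An r of 0.5 or more was reached by 19 of the other 36 members, against 1.92% of genes, and 21 of the 36 passed an adjusted p under 0.1, all of them positive, against 21.2% of genes in either direction. The members were chosen on dose means of these same livers, so these shares describe the list and are no independent evidence. The highest r of a member was 0.92 (Spearman's rho = 0.90, permutation p = 1e-05 for both, adjusted p = 0.000416 and 0.00059), and it lay between 0.91 and 0.95 within dates 1, 2 and 4, which held 2 animals of each group apart from 1 of group 17 on date 2. For ENSRNOG00000021802.5 r was 0.78 (rho = 0.76, permutation p = 1e-05 for both, adjusted p = 0.000416 and 0.00059), between 0.81 and 0.90 within dates. For ENSRNOG00000042289.3 r was 0.54 (rho = 0.52, permutation p = 1e-05 for both, adjusted p = 0.000416 and 0.00059), between 0.50 and 0.79 within dates. A p of 1e-05 is the smallest that these permutations can give. Without the 2 livers farthest from the median of Slfn4 the same 3 values were 0.92, 0.78 and 0.52. The 20 genes were picked by this r, so their values among themselves only describe the choice. The 190 pairs had a median r of 0.60, with 0.36 in vehicle, 0.68 in low-dose and 0.68 in high-dose livers, and the lowest r with Slfn4 in vehicle livers was -0.15.

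The same group was looked for in kidney, an organ that the choice did not use, in the 27 vehicle males with cohort means removed. Of 33 members tested, 6 followed Slfn4 at an adjusted p under 0.1, against 0.152% of 18373 genes, 5 of them positively. Of the 18 tested members with a liver r of 0.5 or more, 5 were called, 17 had a positive r and the median r was 0.62, with a range from -0.27 to 0.83. Of the 15 others 1 was called, negatively, 8 had a positive r and the median r was 0.04. The kidneys came from animals whose livers were also in the liver set, so the organs share animals. ENSRNOG00000021802.5 had a kidney r of 0.63 (rho = 0.62, permutation p = 0.00093 and 0.00153, adjusted p = 0.163 and 0.167), which did not pass. ENSRNOG00000042289.3 had -0.27 (rho = -0.22, permutation p = 0.181 and 0.282, adjusted p = 0.686 and 0.718), so the member with the largest rise did not follow Slfn4 in kidney. Leaving out each date in turn, the median r over the 33 members lay between 0.26 and 0.38.

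**Figure D5:**
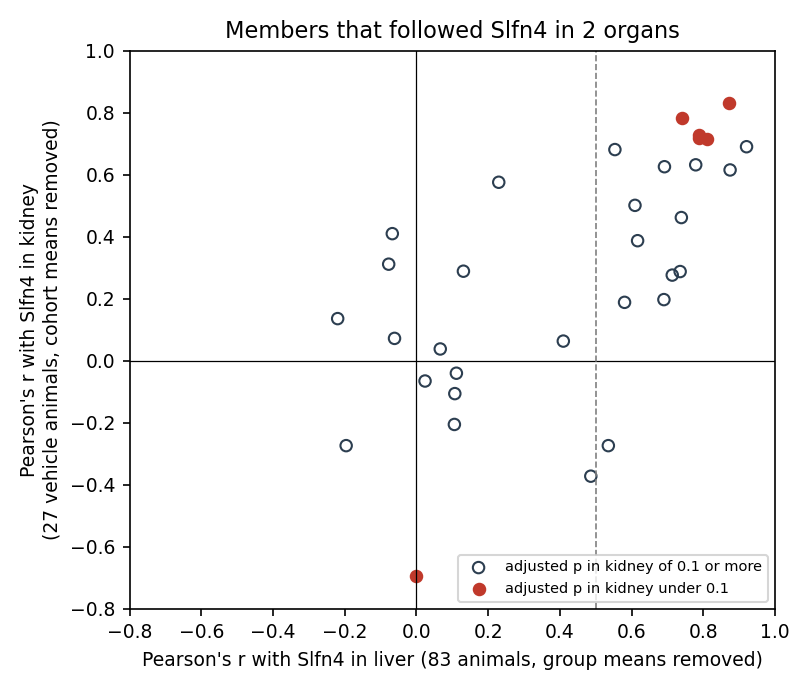
Pearson's r with Slfn4 in kidney (27 vehicle animals, cohort means removed) against r with Slfn4 in liver (83 animals, group means removed), with 1 point for each of 33 members. The members right of the dashed line at 0.5 lie above 0 in kidney apart from 1, and filled points mark the 6 with an adjusted p under 0.1 in kidney.

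Against the other 17 members, the Slfn4 group of 20 had a median log2(low/vehicle) of 1.18, compared with 0.82, and under TMM a median log2(high/low) of -0.41, compared with -0.28. It held 7 of the 11 members that the rule took again under TMM. Of the 1485 genes outside the list with a symbol, 11 reached an r of 0.5 with Slfn4 in liver and 12 had an r of -0.5 or less. The highest of these was Plau, the urokinase plasminogen activator (r = 0.63, rho = 0.60, permutation p = 1e-05 for both, adjusted p = 0.000416 and 0.00059). The genes given here were named after their values were seen, and they include the interferon-inducible Trim34 (r = 0.57, rho = 0.56, permutation p = 1e-05 for both, adjusted p = 0.000416 and 0.00059) and Rtp4 (r = 0.50, rho = 0.49, permutation p = 1e-05 and 2e-05, adjusted p = 0.000416 and 0.000957). The monocyte chemoattractant Ccl2 was another (r = 0.53, rho = 0.53, permutation p = 1e-05 and 2e-05, adjusted p = 0.000416 and 0.000957), as was the cell cycle kinase Wee1 (r = 0.51, rho = 0.47, permutation p = 1e-05 and 2e-05, adjusted p = 0.000416 and 0.000957). Other interferon genes did not reach that r. For Stat2, a transducer of interferon signals, r was 0.29 (rho = 0.28, permutation p = 0.0187 and 0.0239, adjusted p = 0.0910 and 0.116), and for Irf3, an interferon regulatory factor, -0.20 (rho = -0.16, permutation p = 0.127 and 0.196, adjusted p = 0.331 and 0.437). Within dates Plau, Trim34, Rtp4, Ccl2 and Wee1 lay between 0.42 and 0.88, and without the 2 farthest livers r was 0.63, 0.51, 0.49, 0.59 and 0.50 in that order, with 0.24 for Stat2 and -0.24 for Irf3. Rtp4 averaged 27.4 ± 12.4 CPM in vehicle (SD, n = 27), 40.4 ± 20.3 CPM in low-dose (SD, n = 28) and 33.8 ± 19.2 CPM in high-dose livers (SD, n = 28), and Ccl2 0.460 ± 0.341, 1.92 ± 1.78 and 7.59 ± 16.7 CPM (SD, same n).

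The summed level of macrophage markers is given beside these results without a test across doses. The 6 of 24 listed macrophage markers with a symbol (Adgre1, Cd163, C1qb, Ctss, Ccl2 and Cd14) summed to between 135 and 264 CPM in vehicle (median 184), 150 and 398 CPM in low-dose (median 231) and 219 and 610 CPM in high-dose livers (median 338), and none was at 0. The medians differed by a log2 of 0.33 from vehicle to low and 0.55 from low to high dose, where the median gene in CPM differed by 0.14 and 0.39. Under TMM the medians were 218, 241 and 275, with log2 steps of 0.15 and 0.19, and the ranges of the 3 doses overlapped. Cd4, the single symbol of the T and NK cell list, ran from 14.5 to 29.4, from 18.1 to 59.5 and from 37.2 to 111 CPM, and no neutrophil marker had a symbol. With group means removed on the TMM scale, the macrophage sum and Slfn4 had an r of 0.23 over the 83 livers (rho = 0.22, permutation p = 0.0591 and 0.0691, adjusted p = 0.118 and 0.138 over 4 tests), between -0.13 and 0.35 within dates and 0.25 without the 2 farthest livers. In high-dose livers alone r was 0.46 (rho = 0.46, permutation p = 0.0234 and 0.0218, adjusted p = 0.0938 and 0.0874), 0.36 without the 2 farthest. In vehicle livers it was 0.23 (rho = 0.17, permutation p = 0.299 and 0.431) and in low-dose livers -0.04 (rho = -0.03, permutation p = 0.858 and 0.895). The part of these cells in the dose differences was not tested. In bulk tissue such as this, fewer cells of a type and less RNA per cell cannot be told apart. Tat, an enzyme of hepatocytes, was at 732 CPM in vehicle livers and 0.318 CPM in kidneys, as the tissue labels state.

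Among the 1485 genes outside the list with a symbol, 7 reached an r of 0.5 with Per3 in liver and 4 had an r of -0.5 or less. Over all 19003 genes 13 (0.0684%) reached 0.5. Per3 and the genes with a symbol all came from genes that the study had selected for an F0 effect on these samples. No list of clock genes was used, and the clock genes given here were singled out after their values were seen. Of these 11 genes 6 are not among the clock genes described above, namely Tubb2a, a tubulin (r = -0.63), Tns2, a tensin (r = 0.61), Lgalsl (r = -0.59), Hsd17b2 (r = 0.56), Rrp7a (r = -0.53) and Usp54 (r = 0.50). For these 6 the adjusted permutation p was at most 0.0103 by r and at most 0.0289 by rho. The highest r of Per3 in liver was with Dbp (r = 0.83, rho = 0.75, permutation p = 1e-05 for both, adjusted p = 0.00731 and 0.0106), between 0.76 and 0.88 within dates, and the next was Nr1d2 (r = 0.76, rho = 0.76, permutation p = 1e-05 for both, adjusted p = 0.00731 and 0.0106). The lowest was with Arntl, the activator of the loop (r = -0.71, rho = -0.56, permutation p = 1e-05 for both, adjusted p = 0.00731 and 0.0106), between -0.93 and -0.25 within dates. Without the 2 livers farthest from the median, r was 0.80 for Dbp, 0.74 for Nr1d2 and -0.60 for Arntl. Nr1d1 (r = 0.61, rho = 0.59, permutation p = 1e-05 for both, adjusted p = 0.00731 and 0.0106), Cry2 (r = 0.52, rho = 0.43, permutation p = 1e-05 and 0.00012, adjusted p = 0.00731 and 0.0386) and Cry1 (r = -0.50, rho = -0.47, permutation p = 1e-05 and 2e-05, adjusted p = 0.00731 and 0.0136) passed as well (Cry1 lay just inside -0.5 and is not among the 11), with 0.59, 0.45 and -0.45 without the 2 farthest. The period gene Per1 (r = 0.03, rho = -0.05, permutation p = 0.789 and 0.695, adjusted p = 0.916 and 0.899) and the rhythmic ubiquitin protease Usp2 (r = 0.13, rho = 0.03, permutation p = 0.269 and 0.803, adjusted p = 0.581 and 0.940) did not. In kidney r was -0.70 with Arntl (rho = -0.75, permutation p = 3e-05 and 1e-05, adjusted p = 0.0817 and 0.0459), 0.58 with Nr1d2 (rho = 0.49, permutation p = 0.00229 and 0.00693, adjusted p = 0.0937 and 0.209) and 0.39 with Dbp (rho = 0.29, permutation p = 0.0731 and 0.158, adjusted p = 0.256 and 0.484). It was 0.53 with Nr1d1 (rho = 0.52, permutation p = 0.00124 and 0.00414, adjusted p = 0.0916 and 0.190), -0.43 with Cry1 (rho = -0.41, permutation p = 0.0114 and 0.0288, adjusted p = 0.122 and 0.269) and 0.21 with Cry2 (rho = 0.20, permutation p = 0.382 and 0.362, adjusted p = 0.611 and 0.666). By r Arntl, Nr1d2 and Nr1d1 thus passed in kidney and Dbp, Cry1 and Cry2 did not, and by rho Arntl alone passed. Without the 2 farthest kidneys r was -0.67 for Arntl, 0.39 for Nr1d2, 0.33 for Dbp, 0.37 for Nr1d1, -0.27 for Cry1 and 0.44 for Cry2. Of the other members 3 of 36 followed Per3 in liver, all negatively, against 2.81% of genes, and 0 of 33 in kidney, against 4.56%, with 3 at an unadjusted p under 0.05 (9.09%, against 23.5% of genes). By Spearman's rho 0 of the 33 were called in kidney, against 0.158% of genes. Dbp itself averaged 5.10 ± 4.77 CPM in vehicle, 9.52 ± 17.1 CPM in low-dose and 6.67 ± 4.08 CPM in high-dose livers (SD, n = 27, 28 and 28).

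Noct followed neither Slfn4 (r = -0.08) nor Per3 (r = -0.02). By Pearson's r 0 of the other 36 members followed Noct, against 0.579% of genes (3 at an unadjusted permutation p under 0.05, or 8.33% against 8.18% of genes). By Spearman's rho 0 did, against 0.463% of genes (2 at an unadjusted permutation p under 0.05, or 5.56% against 8.70%). An r of 0.5 or more with Noct in liver was reached by 20 of the 1485 genes outside the list with a symbol, and 2 had -0.5 or less. Over all 19003 genes 25 (0.132%) reached 0.5. The symbols came from genes that the study had selected for an F0 effect on these samples, as Noct was. Tat, Insig1 and Per1 were named after their values were seen. Noct had its highest r among genes with a symbol with Tat, the tyrosine aminotransferase that glucocorticoids induce in hepatocytes (r = 0.73, rho = 0.74, permutation p = 1e-05 for both, adjusted p = 0.00905 and 0.0127), between 0.70 and 0.82 within dates. Insig1, a brake on sterol synthesis, was next (r = 0.72, rho = 0.68, permutation p = 1e-05 for both, adjusted p = 0.00905 and 0.0127), between 0.23 and 0.75 within dates, and the period gene Per1 also ran with it (r = 0.64, rho = 0.58, permutation p = 1e-05 for both, adjusted p = 0.00905 and 0.0127). Without the 2 farthest livers r was 0.68 for Tat, 0.67 for Insig1 and 0.59 for Per1. Tat averaged 732 ± 363, 786 ± 528 and 1026 ± 469 CPM in vehicle, low-dose and high-dose livers (SD, n = 27, 28 and 28).

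In the kidneys of the vehicle males 30 of the 37 members reached 1 CPM (81.1%, against 95.7% of the 11910 genes) and 16 stood higher than in vehicle liver (43.2%, against 78.3%). Slfn4 averaged 21.9 ± 7.63 CPM in kidney (SD, n = 27), close to its vehicle liver level. Per3 averaged 10.3 ± 3.80 CPM, Noct 10.7 ± 3.13 CPM and ENSRNOG00000042289.3 7.26 ± 2.31 CPM (SD, n = 27), all above their vehicle liver means, while ENSRNOG00000021802.5 averaged 2.93 ± 1.1 CPM (SD, n = 27), below it. Liver and kidney levels of the same gene in the same 27 animals, with cohort means removed, followed each other for 8 of 34 members, all positively, against 1.61% of 17403 genes. The r was above 0 for 27 of the 34, with a median of 0.31 against 0.01 over all genes and a maximum of 0.91 (rho = 0.91, permutation p = 1e-05 for both, adjusted p = 0.00267 and 0.00347, and 0.90 without the 2 farthest animals). Per3 (r = 0.54, rho = 0.58, permutation p = 0.00458 and 0.00266, adjusted p = 0.186 and 0.147) and Slfn4 (r = 0.52, rho = 0.49, permutation p = 0.01 and 0.0148, adjusted p = 0.277 and 0.350) did not pass.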

How the data were processed

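Liver RNA of 83 and kidney RNA of 27 F2 male rats was sequenced from stranded mRNA libraries. The authors estimated transcript abundance with Salmon 0.14.0 against Ensembl release 100, summed it per gene and deposited estimated counts per gene as whole numbers without normalization, with average transcript lengths per gene and sample. Groups followed the sample labels, and litters and necropsy dates the study's animal records. The members and gene lists were chosen with earlier results of these data known. Members were found in CPM by the rule given above. Genes with a summed count over 10 in a group were tested with edgeR 4.0.16 (quasi-likelihood, TMM; R 4.3.3), F0 and F1 treatment beside F2 dose, interactions and dates on 12 group means, lengths with limma 3.58.1 (calls also needed a log2 difference over 0.1), all with Benjamini-Hochberg adjustment at 0.1. Correlations used residuals from group means (numpy 2.4.6). DESeq2 1.42.0, size factors, length offsets, no filter, blocks and left-out dates, cohorts or doses were alternatives. Spearman's rho, unscaled CPM in kidney and leaving out the highest low-dose library, and the macrophage correlation, were added after seeing the data. Members to name were fixed by rule (the 20 with the largest low-dose rise, up to 5 past each test, those at the limits of the rule and the extremes of level and spread), of which at most 2 without a symbol were named by identifier. Symbols were known for 1489 identifiers.

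Males that share a litter were weakly alike (mean residual correlation 0.114 over 68 pairs in other dose groups, 41 of them over 0.1, against 0.0204 for other pairs of the same date, over 12330 genes), so the litter was used as a block in an alternative. The F0 test in liver and kidney, the F0 interaction, the liver date test, the length test of low dose against vehicle and the permutation of correlations were checked on simulated data, in which calls among unchanged genes exceeded the share the threshold allows for the F0 test in liver and the liver date test and, by little, for the F0 interaction and the kidney F0 test. The F1, kidney date and remaining length tests use the same code and were not simulated on their own. The lowest count of Slfn4, Per3 and Noct in a liver library was 344, 31 and 16. The 2 unnamed members with counts of 0 were at 0 in 63 and 29 livers.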

Additional observations from a re-analysis of the deposited data

Results flagged for a closer look

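Of 80 sets of 4 to 10 animals examined for the 5 named members, 18 held a highest animal far from the others by Dixon's criterion, and no lowest animal did. Chance meets it in about 1 of 20 sets of normally distributed values. CPM values were used without a log, so 18 cannot be set against that rate. For Slfn4 the liver of group 13 at 125 CPM (group median 23.1), that of group 16 at 127 CPM (26.2) and that of group 22 at 248 CPM (32.6) stood apart, all of them high-dose groups. For Per3 the livers were at 25.9 CPM in group 13 (4.08), 8.56 CPM in group 15 (3.71), 21.2 CPM in group 18 (3.83) and 44.1 CPM in group 21 (6.35), and a kidney of group 14 was at 17.5 CPM (8.63). For Noct the livers were at 42.5 CPM in group 15 (1.98), 7.97 CPM in group 17 (0.963), 4.31 CPM in group 20 (1.28) and 11.7 CPM in group 22 (3.49). For ENSRNOG00000042289.3 a kidney of group 14 was at 14.1 CPM (5.47). For ENSRNOG00000021802.5 the livers were at 8.29 CPM in group 14 (3.43), 29.8 CPM in group 17 (3.22), 10.4 CPM in group 20 (2.91) and 58.6 CPM in group 21 (23.3), and a kidney of group 11 was at 6.86 CPM (2.93).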

How the results depend on the processing

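Of the 37 members the rule took 11 again with TMM, 11 with DESeq2's size factors, 21 with medians over libraries, 19 with a vehicle minimum of 5 CPM and 18 with a log2(high/low) limit of 0.25. Leaving out a cohort or date kept between 22 (without cohort C) and 33. The count of 2 members with an F0 effect in liver became 1 at an adjusted p under 0.05 (5.58% of all genes), 1 with the date as a block (8.78%), 1 with the litter as a replicate block (5.80%, in limma-voom, so the tool changed too), between 0 and 2 with a date left out (0 without date 2, with 7.33%, and 1 without date 4, with 3.67%), and 0 in vehicle, 0 in low-dose and 0 in high-dose animals alone, where 1.86%, 0.234% and 0% of all genes were called. In high-dose animals alone the Noct difference turned to 0.20 (adjusted p = 0.938 in edgeR). In vehicle animals alone F1 treatment was called for 2 members instead of 0, and for 0.462% of all genes. With unscaled CPM 10 instead of 6 members followed Slfn4 in kidney, all positively, against 0.702% of genes, and with Spearman's rho 5 instead of 8 followed between the organs, against 1.45%. The litter block changed no call for F1 treatment in liver, the low-dose interactions or the lengths, and was not run for the dates, the kidney or the correlations. The causes were not tested. Another 88 counts stayed within 1.5 times the reported one. Of the values of named members 130 kept their side of the threshold, 12 lost their call (Per3 and Noct) and 1 gained one (Slfn4 for F0 with length offsets, 0.28). A change of sign between values that were not called either way was counted among the 130. The counting error is largest for the 18 members with a vehicle mean under 5 CPM.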
